A study of Mus musculus with 11 samples.

Results

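Gingival epithelium with a ligature in place was compared with epithelium from naive mice, in 7 of the 11 RNA-seq libraries of the study: ligature replicates 1 to 3 and naive replicates 1 to 4. The members are all 178 genes that carry a name in the deposited table, taken as deposited. The labels describe male B6 mice, but Usp9y, a Y-linked gene in the table, had 0 counts in all 7 of these libraries. In the ligature group (n = 3 libraries) silk was tied around the second molar on both sides of the upper jaw and left in place. Naive mice (n = 4) had no ligature. A further group of 4 libraries, from mice whose ligature was taken off on day 3, entered the fit only to estimate the spread. The mice's age, the day of tissue collection and whether each library is a separate animal were not given in the sources used here, and each p-value reflects only how far these libraries scatter. All libraries share the same tissue preparation, in which gingiva was soaked in Dispase and the epithelium was peeled off under a microscope.

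A ligature around a molar holds bacterial plaque against the gum and leads to periodontitis, the inflammatory loss of the bone that anchors the tooth. The gingival epithelium is the barrier that faces this plaque. Its basal cells divide, its upper cells keratinise, and it makes antimicrobial peptides, ligands of the epidermal growth factor (EGF) receptor and inflammatory signals. Rapid-response genes (immediate early genes such as Fos, Jun and Egr1) are those whose transcripts rise within minutes of a growth factor, injury or stress and then decay. The comparison asks how epithelial transcripts differ while the ligature is in place.

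The table was not a transcriptome. In a DESeq2 fit with a library set term, the largest unadjusted p in the table, taking for each gene the smaller one of ligature and removed ligature against naive, was 0.0103, and 153 of the 178 genes were at or below it for ligature itself. Counts of called genes below are therefore counts within a preselected table, and a gene that is not in it may have been measured and left out. The genes appear to have been chosen on these same libraries. Low p-values for them were thus partly fixed in advance and are not fresh evidence of a difference. The counts over these genes summed to between 282274 and 503570 per library, which is not the sequencing depth. The depth is unknown. The deposited batch correction split the libraries in 2 sets: set A held naive 1, naive 2 and ligature 1, and set B held naive 3, naive 4, ligature 2 and ligature 3. The labels name no batch.

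The tissue label could be checked only in part, since 4 of the 98 genes on 13 cell type marker lists were in the table. Krt10, a keratin of keratinising epithelial layers, made up 20.74% to 25.98% of the naive and 34.95% to 43.62% of the ligature table counts. Of 10 macrophage and monocyte markers, Cd68 alone was in the table. Cd68, a lysosomal protein abundant in macrophages, had 328, 222, 261 and 336 normalised counts (raw counts over the deposited size factor) in naive replicates 1 to 4. It had 170.4, 178 and 191 in ligature replicates 1 to 3. The groups did not overlap, and Cd68 fell by 0.67 ± 0.16 on the log2 scale with the ligature (SE; edgeR adjusted p = 0.00402). With TMM factors computed over the table its log2 change was -0.31 (edgeR adjusted p = 0.131). No gene on the lists for neutrophils, Langerhans and dendritic cells, T and NK cells, B cells, mast cells, fibroblasts, vessels, melanocytes, nerve or muscle was in the table. The part of these cells in the results below was not tested. In bulk tissue, fewer cells of a type and less RNA per cell cannot be told apart.

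Most of the measured change was downward on the deposited scale, a balance that factors computed over the table turned. Of 176 genes tested, 150 were called at an adjusted p under 0.05 (85.2%; edgeR quasi-likelihood F test, Benjamini-Hochberg). Of these, 50 were higher with the ligature (28.4% of those tested) and 100 were lower (56.8%). On the deposited scale rises were small: 5 of the 50 exceeded 2-fold, 34 were under 1.5-fold, and their median log2 fold change was 0.48. Falls were larger on that scale: 35 of the 100 exceeded 2-fold, 29 were under 1.5-fold, and their median was -0.79. The ligature and naive libraries did not overlap in 131 of the 176 genes (74.4%), among them 44 of the 50 higher and 86 of the 100 lower genes. With TMM factors, which treat the bulk of the table as unchanged, the median over the tested genes moved from -0.38 to -0.02, a shift of 0.36. A shift of this kind makes rises larger and falls smaller, so the contrast in their sizes also depended on the scaling. Then 64 genes were higher and 50 lower, and the share of calls that were higher went from 33.3% to 56.1%. All 50 genes called higher were called higher with TMM factors too. Of the 100 lower genes 50 were still called lower, none was called higher, and 7 took a log2 fold change above 0. Leaving out each of the 7 libraries in turn left 119 genes called in all 7 fits, 39 higher and 80 lower.

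**Figure D1:**
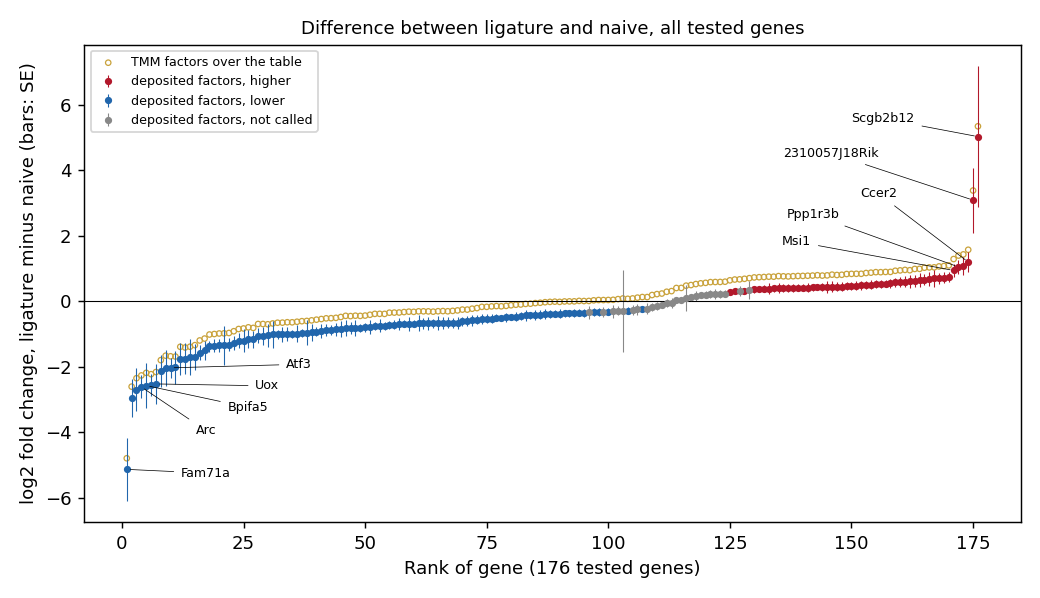
Log2 fold change of each of the 176 tested genes, ligature minus naive, ordered by size (filled points with SE bars, colour by call), with the value under TMM factors as open circles. The 100 lower genes reach -5.14 (Fam71a) while most of the 50 higher genes lie under 1, and the open circles sit about 0.36 above the filled ones.

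The rapid-response genes were lower together. All libraries share the Dispase soak and peeling. Whether that handling altered these transcripts, or those of the heat shock chaperones below, was not tested. Of the 62 genes on that list 26 were in the table, and all 26 were lower with the ligature, with non-overlapping libraries in each. Over all tested genes 56.8% were lower and 74.4% did not overlap. The median log2 fold change of the 26 was -0.69 against -0.38 over all tested genes. With TMM factors 15 of the 26 were called lower and their median was -0.33, and Zfp36l1 took a log2 fold change of 0.13. Each of the other 25 was called in all 7 fits that left out a library. Arc, an activity-induced cytoskeletal protein best known from neurons, had 174, 275, 234 and 216 normalised counts in the naive libraries and 40.9, 30.2 and 38.1 in the ligature libraries. Even the lowest naive library lay far above the highest ligature library. The log2 change was -2.62 ± 0.35 (SE; edgeR adjusted p = 0.000224). Atf3, a stress-induced transcription factor, had 1160.4, 1511, 1936 and 2316 in naive and 459, 513 and 295 in ligature libraries, a log2 change of -2.04 ± 0.30 (edgeR adjusted p = 0.000341). Gadd45g, a growth arrest and stress protein, had 651, 633, 712 and 757 against 227, 304 and 261, with a narrow spread in both groups. It fell by 1.38 ± 0.17 on the log2 scale (edgeR adjusted p = 0.000201).

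Egr1, a zinc finger transcription factor, had 17016, 17944, 16956 and 19550 normalised counts in naive libraries and 9473, 9081 and 8144 in ligature libraries. Each ligature library was below every naive library, and the log2 change was -1.01 ± 0.13 (SE; edgeR adjusted p = 0.000201). The AP-1 factors, which pair Fos and Jun family proteins, were lower in each measured member (named here after their values were seen). Of the Fos and Jun genes Fosb fell most, from 16302 ± 1724 to 6368 ± 1752 (mean ± SD, n = 4 and n = 3). Fos had 14653, 13600, 11604 and 14348 in naive and 7290.2, 7764 and 6251 in ligature libraries, without overlap. The log2 fold changes of Fos, Jun, Junb and Jund were -0.93, -0.75, -0.69 and -0.51. With TMM factors those of Fos, Fosb, Jun and Junb were still called, and that of Jund was -0.15 (edgeR adjusted p = 0.18). Zfp36 (tristetraprolin), which speeds the decay of cytokine and rapid-response mRNAs, had 12080, 12316, 9919 and 12037 in naive and 5877, 5785 and 5985 in ligature libraries. Its ligature values were nearly equal to one another, and it fell by 0.98 ± 0.12 on the log2 scale (edgeR adjusted p = 0.000201).

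Promoters of 22 of the 26 rapid-response genes were in the RefSeq table (mouse build GRCm38.p6, 250 bases before to 50 after the start of each gene), and 134 of all 178 genes had one. A search of both strands covered 9 motifs, and no letter string given here contains another. The letters TATAAA, the core of a TATA box, occurred in 8 of the 22 rapid-response promoters (36.4%) and in 20 of 71 genes called lower (28.2%). They were in 3 of 40 called higher (7.5%), in 0 of 23 not called or not tested and in 15.67% of 27025 mouse genes. The windows of 3 genes are shown for rapid-response genes that fell, with TATAAA in capitals, each read 5′ to 3′ along the gene.
Fos, chr12:85473840-85473879, plus strand: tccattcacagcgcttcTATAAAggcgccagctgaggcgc
Gadd45g, chr13:51846631-51846670, plus strand: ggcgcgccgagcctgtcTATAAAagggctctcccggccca
Ccn1, chr3:145649988-145650027, minus strand: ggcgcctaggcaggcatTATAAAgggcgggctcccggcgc
The match began 33 bases before the start in Fos, 27 in Gadd45g and 25 in Ccn1. In Krt10, a gene called higher, it began 26 bases before the start. Positions in the other rapid-response promoters are not given here, and the counts above take a match anywhere in the window.

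The cAMP response element TGACGTCA was in 5 of 71 genes called lower (7.0%), in 1 of 40 called higher (Ccer2) and in 2.03% of mouse genes. The 5 lower genes were Areg, Btg2, Dusp1, Plk2 and Ppp1r15a, and the capitals below mark the element.
Areg, chr5:91139517-91139566, plus strand: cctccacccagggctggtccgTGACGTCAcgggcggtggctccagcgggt
Btg2, chr1:134079293-134079342, minus strand: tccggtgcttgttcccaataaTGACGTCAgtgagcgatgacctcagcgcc
Dusp1, chr17:26508587-26508636, minus strand: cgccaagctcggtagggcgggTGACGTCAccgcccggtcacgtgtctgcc
Plk2, chr13:110394961-110395010, plus strand: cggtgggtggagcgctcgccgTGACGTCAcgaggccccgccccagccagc
Ppp1r15a, chr7:45526252-45526301, minus strand: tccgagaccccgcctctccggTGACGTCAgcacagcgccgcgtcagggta
These 5 were taken from the genes called lower, so their falls were fixed in advance. The log2 changes were -1.50 for Areg, -0.81 for Btg2 (an antiproliferative protein) and -0.54 for Dusp1 (a MAP kinase phosphatase). They were -0.62 for Plk2 and -0.49 for Ppp1r15a (the stress-induced GADD34). With TMM factors Areg and Btg2 were still called, and the other 3 were not. The AP-1 letters TGACTCA were in none of the 22 rapid-response promoters and in 5.95% of mouse genes. The EGR letters GCGNGGGCG were in 5 of the 22, in 7 of 40 genes called higher, in 10 of 71 called lower, in 5 of the 23 not called or not tested and in 6.27% of mouse genes. The kappaB motif was in 3 of the 22, in 5 of 40 genes called higher, in 4 of 71 called lower, in 4 of those 23 and in 5.14% of mouse genes. The CArG box was in 1 of the 22 and in 1.81% of mouse genes. A match describes the letters of this window and says nothing of a factor bound there.

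Both EGF receptor ligands in the table, of 9 on the list, were lower, beside 56.8% of all tested genes. Areg (amphiregulin), a ligand that drives keratinocyte growth, had 112, 159.8, 124 and 127 normalised counts in naive libraries and 47.7, 47.7 and 42.8 in ligature libraries. The ligature values lay within a few counts of one another and below every naive library. Hbegf, a ligand that promotes migration and wound closure, had 1284, 1812, 1433 and 1913 in naive and 809, 566 and 623 in ligature libraries. The log2 change was -1.50 ± 0.30 for Areg (edgeR adjusted p = 0.00192) and -1.27 ± 0.21 for Hbegf (edgeR adjusted p = 0.000601), and both were still called with TMM factors. Phlda1, an inducible regulator of growth and survival named here after its values were seen, had 792, 1391, 875 and 1062 in naive and 311, 367 and 362 in ligature libraries. It fell by 1.57 ± 0.23 (edgeR adjusted p = 0.000341).

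All 4 antimicrobial genes in the table, of 22 on the list, were lower, beside 56.8% of all tested genes. Their median log2 fold change was -1.32, and 3 of them were called lower with TMM factors. Bpifa5, a secreted protein of the bactericidal/permeability-increasing fold family, had 1432, 803, 246 and 1227 normalised counts in naive and 176, 182 and 109 in ligature libraries. Naive values ranged widely, and the lowest of them was still above each ligature library. The beta-defensin Defb3 had 96.0, 232, 182 and 166 in naive and 34.9, 63.2 and 51.1 in ligature libraries, a log2 change of -1.76 ± 0.50 (edgeR adjusted p = 0.0071). Defb14, the mouse counterpart of human beta-defensin-3, had 220.5, 207, 218 and 242 against 119, 112 and 129. This was the most even of the 4 within each group, with a log2 change of -0.88 ± 0.18 (edgeR adjusted p = 0.00233). Pglyrp4, which binds bacterial peptidoglycan, fell by 0.78 ± 0.22, and with TMM factors its log2 change was -0.41 (edgeR adjusted p = 0.0572).

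The 5 genes of NF-kappaB and Toll-like receptor signalling in the table, of 34 listed, were each lower, beside 56.8% of all tested genes. With TMM factors 2 of them were called lower. Nfkbia, the inhibitor that holds NF-kappaB in the cytoplasm, had 3310.3, 4431, 4048 and 4744 normalised counts in naive and 2159, 2035 and 1935 in ligature libraries. It fell by 1.02 ± 0.12 on the log2 scale (SE; edgeR adjusted p = 0.000201), with close agreement among the ligature libraries. Nfkbiz, a nuclear cofactor of NF-kappaB, had 2511, 2237, 2717 and 2727 against 1388, 1639.6 and 1128 and fell by 0.88 ± 0.15 (edgeR adjusted p = 0.000792). Tnfaip2, a protein induced by tumour necrosis factor, the kinase Map3k8 and the receptor adaptor Myd88 had log2 changes of -0.66, -0.58 and -0.41. With TMM factors these 3 were -0.30, -0.23 and -0.05 and none of them passed the test. The call of Myd88 was also lost without ligature 2.

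Of 34 cytokine, chemokine and regulator genes, 2 were in the table and both were lower, beside 56.8% of all tested genes. Ptgs2 (cyclooxygenase-2), the inducible enzyme of prostaglandin synthesis, had 39.0, 66.8, 107 and 90.5 normalised counts in naive and 14.5, 33.1 and 22.3 in ligature libraries. The highest ligature library came close to the lowest naive library without reaching it, and the log2 change was -1.70 ± 0.39 (edgeR adjusted p = 0.00332). Socs3, the feedback inhibitor of cytokine receptors that signal through STAT3, had 1486, 1333, 2307 and 2130 against 602, 1057 and 694. It fell by 1.21 ± 0.23 (edgeR adjusted p = 0.00159), and both genes were still called with TMM factors.

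The 3 heat shock chaperones in the table, of 15 listed, were lower, beside 56.8% of all tested genes. All 3 were still called with TMM factors. Hspa1a, a stress-inducible HSP70, had 2075, 2148, 1487 and 1896 normalised counts in naive and 793, 569 and 871 in ligature libraries. Its near-identical copy Hspa1b had 3528, 3949, 2529.9 and 3268 against 2101, 1534 and 2002, and reads of the pair could have been split between them by the counting, so their separate values are uncertain. Their log2 changes were -1.35 ± 0.20 and -0.82 ± 0.18 (edgeR adjusted p = 0.000341 and 0.00301). Dnajb1, an HSP40 partner of HSP70, fell by 0.80 ± 0.15 (edgeR adjusted p = 0.00115). The heat shock unit GAANNTTC was in both HSP70 promoters but not in that of Dnajb1, in 4 of 71 genes called lower and in 9.04% of mouse genes. Their 48-base windows are shown because they are identical, with the unit in capitals.
Hspa1a, chr17:34972233-34972280, minus strand: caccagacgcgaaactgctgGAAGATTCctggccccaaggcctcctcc
Hspa1b, chr17:34959315-34959362, minus strand: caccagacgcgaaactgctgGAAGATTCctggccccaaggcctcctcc

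**Figure D2:**
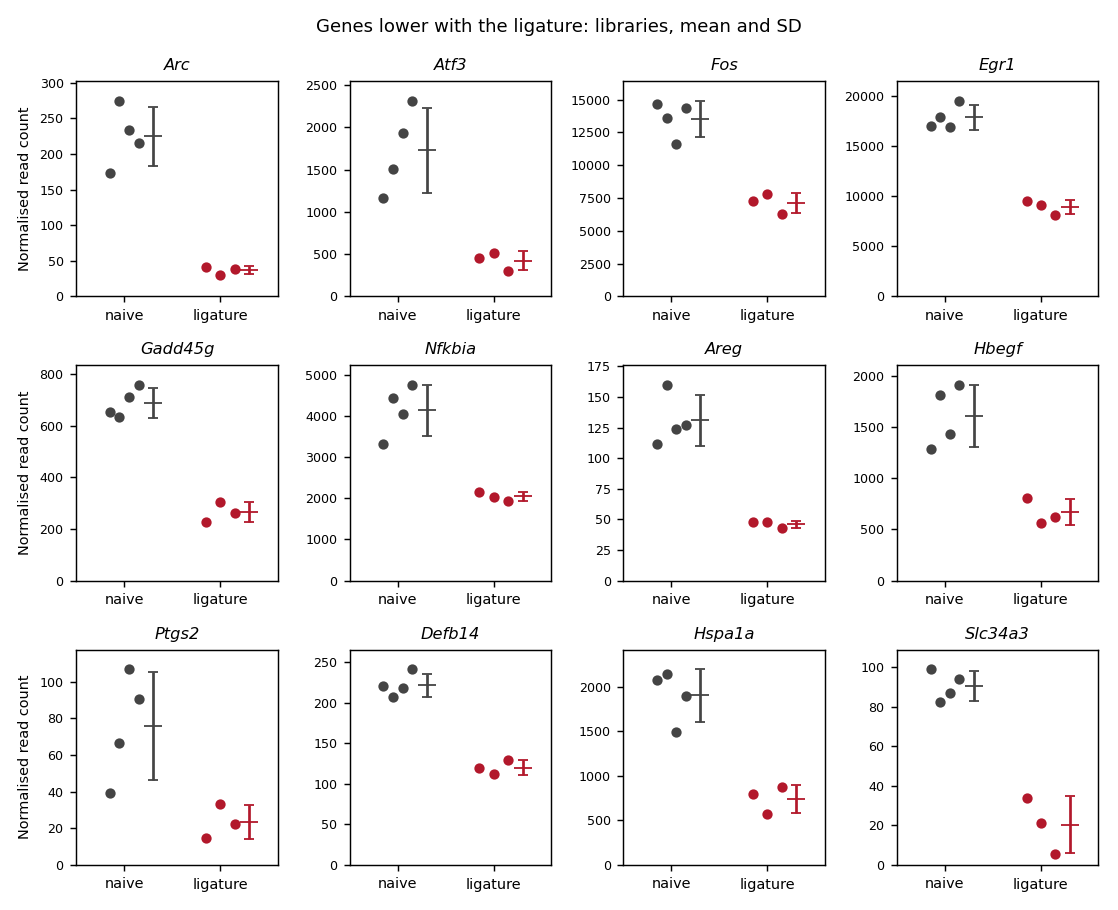
Normalised read counts of 12 lower genes in each naive (grey, n = 4) and ligature (red, n = 3) library, with mean and SD beside the points; each vertical axis starts at 0. In every panel the highest ligature library lies below the lowest naive library.

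Other large falls were in genes with few shared roles. Fam71a, whose function is little described, had 21.1, 25.2, 81.9 and 148 normalised counts in naive and 0.85, 3.89 and 0.93 in ligature libraries, with 1, 4 and 1 raw counts in the latter. Naive values differed several-fold, the 2 libraries of set B being the higher, and the log2 change was -5.14 ± 0.95 (SE; edgeR adjusted p = 0.00124). It was -4.42 without naive 4 and -6.09 without ligature 2. Uox, urate oxidase, had 67.5, 62.0, 85.8 and 99.3 against 9.37, 17.5 and 13.9, a log2 change of -2.53 ± 0.62 (edgeR adjusted p = 0.00436). Iqcn, a calmodulin-binding motif protein, had 62.2, 78.5, 111 and 104 against 18.7, 13.6 and 12.1 and fell by 2.57 ± 0.33 (edgeR adjusted p = 0.000201). Clec2e and Clec2g, C-type lectin-like proteins, were both lower, with log2 changes of -2.04 ± 0.55 and -0.75 ± 0.21, of which only the first was still called with TMM factors. Clec2e had 135, 52.3, 23.8 and 83.5 in naive and 21.3, 12.7 and 19.5 in ligature libraries, where naive 3 was close to ligature 1.

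Transporter and channel genes were lower in 3 of 5, close to the 56.8% of all tested genes. Slc34a3, a sodium-phosphate cotransporter, had 99.2, 82.3, 87.2 and 94.0 normalised counts in naive and 34.1, 21.4 and 5.58 in ligature libraries. Naive values were tight, ligature values differed several-fold, and the log2 change was -2.14 ± 0.49 (edgeR adjusted p = 0.00332). With ligature 1 left out it was -2.75, and with ligature 3 left out -1.70. The sodium-glucose cotransporters Slc5a1 and Slc5a9 had log2 changes of -0.69 and -0.68, with TMM values of -0.32 and -0.31 that did not pass the test. Slc5a9 libraries overlapped between the groups. Rnf224, a RING finger protein, had 638, 557, 448 and 566 in naive and 281, 164 and 214 in ligature libraries and fell by 1.33 ± 0.21 (edgeR adjusted p = 0.000399). The membrane proteins Tmem95 and Tmem117 were lower, with log2 changes of -1.16 ± 0.25 and -1.17 ± 0.27. Slc5a1, Slc5a9, Rnf224, Tmem95 and Tmem117 were named after their values were seen.

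Some lower calls rested on few libraries or on wide spread. Zbtb16, a glucocorticoid-induced transcription factor, had 135, 82.3, 499 and 169 normalised counts in naive and 47.7, 56.4 and 98.6 in ligature libraries. Naive 3 stood far above the other libraries and the groups overlapped, with a log2 change of -1.70 ± 0.54 (SE; edgeR adjusted p = 0.0116). Without naive 3 it was -0.93. Angptl4, a fasting-induced inhibitor of lipoprotein lipase, had 59.1, 64.9, 173 and 169.6 against 18.7, 66.2 and 53.0, high in naive 3 and naive 4 alone. In edgeR its adjusted p was 0.0496, a call lost without naive 3, naive 4, ligature 1 or ligature 3. Naive 3 and naive 4 are the naive libraries of set B. With the library set as a term the log2 change of Angptl4 was -1.59 (edgeR adjusted p = 0.000142). The log2 ratio of means was -1.73 in set A and -1.52 in set B. The vascular peptide adrenomedullin (Adm) did not share these limits. It fell by 1.01 ± 0.22 (edgeR adjusted p = 0.00278) without overlap and was called in all 7 fits that left out a library. Vegfa, an endothelial growth factor, had 1462, 1330.1, 1343 and 1319.8 in naive and 1553, 1274 and 1079 in ligature libraries, and the groups overlapped. Its log2 change was -0.07 ± 0.12 with deposited factors (edgeR adjusted p = 0.601) and 0.29 with TMM factors (edgeR adjusted p = 0.0334), so the direction depended on the scaling.

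Among the higher genes, the 4 mitosis and chromosome genes in the table, of 29 listed, were all higher, beside 28.4% of all tested genes. Their median log2 fold change was 0.52 against -0.38 over all tested genes. They were still called higher with TMM factors and without each library in turn. Mki67, which coats mitotic chromosomes and marks cycling cells, had 3653, 3365, 3358 and 3328 normalised counts in naive and 5180.5, 4229.8 and 5403 in ligature libraries. All 3 ligature libraries lay above the naive range, and the rise was 0.53 ± 0.12 on the log2 scale (SE; edgeR adjusted p = 0.00371). Aspm, a spindle pole protein, had 477, 552, 503 and 494 against 776, 619.8 and 758, a rise of 0.50 ± 0.12 (edgeR adjusted p = 0.00371). Kif14, a kinesin of cytokinesis, had 246, 248, 240.3 and 219 against 376, 294 and 401, a rise of 0.58 ± 0.15 (edgeR adjusted p = 0.00474). Racgap1, a GTPase regulator of the cleavage furrow, had 722, 849, 615 and 759 against 1064, 841 and 1004. Here ligature 2 lay just under naive 2, so the groups overlapped, and the rise was 0.40 ± 0.12 (edgeR adjusted p = 0.011). Neil3, a DNA glycosylase and the only member in the table of 27 replication and repair genes, had 127, 117, 114 and 125 in naive and 231, 183 and 189 in ligature libraries. The groups were well apart and the rise was 0.74 ± 0.15 (edgeR adjusted p = 0.00252).

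The letters TTTGAA, the core of the cell cycle homology region of many mitotic promoters, were in all 4 of these mitosis promoters. They were in 13 of 40 genes called higher (32.5%), in 14 of 71 called lower (19.7%), in 1 of 23 not called or not tested and in 20.23% of mouse genes. CCAAT was in all 4 as well, but also in 16 of the 40 higher genes, 28 of the 71 lower genes and 41.06% of mouse genes. The windows are printed to show the shared letters, with TTTGAA in capitals.
Mki67, chr7:135716450-135716499, minus strand: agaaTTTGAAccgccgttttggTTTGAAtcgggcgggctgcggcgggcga
Aspm, chr1:139454757-139454802, plus strand: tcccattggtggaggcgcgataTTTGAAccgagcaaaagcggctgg
Kif14, chr1:136467598-136467647, plus strand: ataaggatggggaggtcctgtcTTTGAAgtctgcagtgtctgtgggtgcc
Racgap1, chr15:99651627-99651673, minus strand: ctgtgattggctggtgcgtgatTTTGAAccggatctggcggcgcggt
The match lay near the start in Aspm and Racgap1 and 228 bases before it in Kif14. Mki67 held the letters at 2 places in its window, the first of them 116 bases before the start.

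The 2 genes of the basal and progenitor list, of 18, were higher, beside 28.4% of all tested genes. Both were called in all 7 fits that left out a library. Msi1 (Musashi 1), an RNA-binding protein of progenitor cells, had 253, 201, 240.3 and 185 normalised counts in naive and 521, 382 and 358 in ligature libraries. Ligature 1 was the highest, all 3 were above the naive range, and the rise was 0.94 ± 0.20 on the log2 scale (SE; edgeR adjusted p = 0.00274). Lgr6, an R-spondin receptor found on epithelial progenitors, had 158, 175, 161 and 168 against 255, 209 and 229, a rise of 0.48 ± 0.14 (edgeR adjusted p = 0.00967). Of 36 differentiation and barrier genes 2 were in the table and they went opposite ways. Krt10 had 109640, 91942, 90595 and 81960 in naive and 187180, 116430 and 133290 in ligature libraries, where ligature 1 was far above the others. Its rise was 0.64 ± 0.22 (edgeR adjusted p = 0.0182). It was no longer called without naive 4 or ligature 1. Ugcg, a glucosylceramide synthase, had a log2 change of -0.34 ± 0.12 with deposited factors (edgeR adjusted p = 0.0174) and of 0.03 with TMM factors. Lce3d, a cornified envelope protein named after its values were seen, fell by 0.85 ± 0.24 with overlapping libraries, and with TMM factors its log2 change was -0.48 (edgeR adjusted p = 0.0559).

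Metabolic genes among the higher ones were few. Ppp1r3b, which directs protein phosphatase 1 to glycogen, had 180.4, 231, 263 and 234 normalised counts in naive and 579, 488 and 338 in ligature libraries. All ligature values lay above the naive range, with ligature 1 well above ligature 3, and the rise was 1.05 ± 0.21 on the log2 scale (SE; edgeR adjusted p = 0.00231). It was the only one of 3 measured glucose and glycogen genes called higher. Pfkp, a phosphofructokinase of glycolysis, had 2208, 2271, 1645 and 1794 in naive and 3006, 2154 and 2193 in ligature libraries and did not pass the test (log2 change 0.31 ± 0.15, edgeR adjusted p = 0.0652), while with TMM factors it was 0.67 (edgeR adjusted p = 0.000576). With the library set as a term Pfkp was called higher, at 0.36 (edgeR adjusted p = 0.00395). Among lipid genes Scd2, a stearoyl-CoA desaturase, had 5582, 5799, 4472 and 4604 against 8076, 6504 and 6325, a rise of 0.45 ± 0.14 (edgeR adjusted p = 0.0107). Acer3, a ceramidase, had 382, 296, 395 and 373 against 539, 441 and 596, without overlap, and rose by 0.54 ± 0.14 (edgeR adjusted p = 0.00638). The 3 genes of organelles and membrane traffic in the table, of 16 listed, were all higher, beside 28.4% of all tested genes. They were Vps13c (a lipid transfer protein), Vma21 (an assembly factor of the proton pump) and Lnpk (a shaper of the endoplasmic reticulum). Their rises were 0.42, 0.39 and 0.44. Vma21 and Lnpk overlapped between groups and lost their calls without single libraries, naive 2, naive 3, ligature 2 or ligature 3 for both and naive 1 for Lnpk alone.

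**Figure D3:**
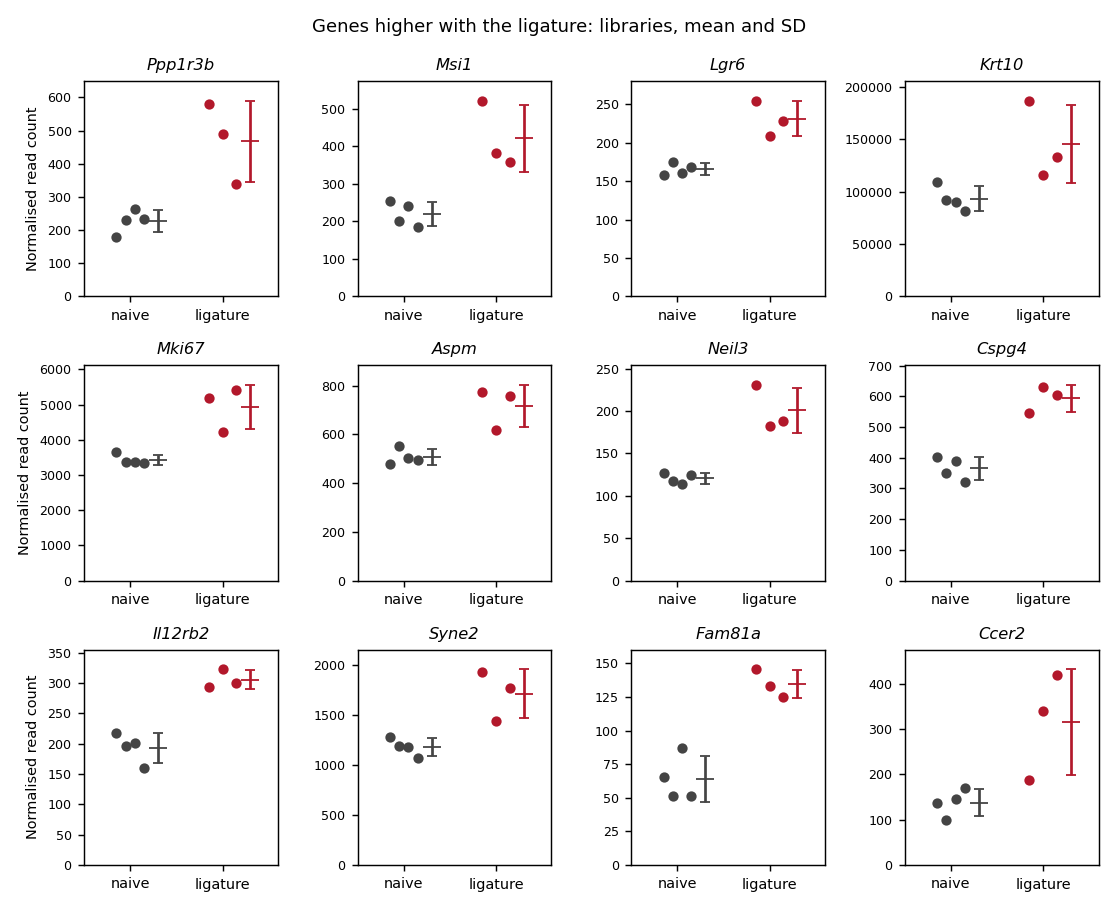
Normalised read counts of 12 higher genes in each naive (grey, n = 4) and ligature (red, n = 3) library, with mean and SD beside the points; each vertical axis starts at 0. In every panel each ligature library lies above each naive library, most closely for Krt10, Ccer2 and Aspm.

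The table genes on no function or cell type list were given 11 roles after their names had been seen, and the roles with the most higher genes were transcription (10 of 20) and cytoskeleton, cilia and nuclear envelope (7 of 12), beside 28.4% of all tested genes. Among transcription and chromatin genes, Pou2f1 (Oct-1) had 416, 407, 482 and 381 normalised counts in naive and 647, 585 and 651 in ligature libraries. It stood clear of the naive range and rose by 0.58 ± 0.13 on the log2 scale (SE; edgeR adjusted p = 0.00352). H1f0, a linker histone of resting and differentiated cells, had 2230.1, 2324, 1917 and 2192 against 3395, 2802 and 3156, a rise of 0.53 ± 0.11 (edgeR adjusted p = 0.00231). Nab2, a corepressor that binds EGR factors, had 614, 583, 479 and 535 against 913, 624 and 719. Ligature 2 was only just above the naive range, and the rise was 0.44 ± 0.14 (edgeR adjusted p = 0.0111). It was no longer called without ligature 1. The nuclear factor I genes Nfib and Nfic rose by 0.37 and 0.40, and Mef2a, Tfap2b, Camta1, Zfp516 and Jade1 by 0.42, 0.39, 0.43, 0.41 and 0.42. All of these but Jade1 were called in every fit that left out a library. In this role 7 genes were lower, of which Tob1, an antiproliferative protein named after its values were seen, had a log2 change of -0.43 ± 0.12 (edgeR adjusted p = 0.00638) and of -0.08 with TMM factors.

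Syne2 (nesprin-2), which ties the nucleus to the cytoskeleton, had 1281, 1191, 1184 and 1071 normalised counts in naive and 1928, 1445 and 1772 in ligature libraries. All ligature libraries were above the naive range, with a rise of 0.54 ± 0.12 on the log2 scale (edgeR adjusted p = 0.00278). Iqgap2, a scaffold of actin and small GTPases, had 217, 187, 368 and 288 against 428, 478 and 373. Naive values were higher in set B, ligature 3 came within a few counts of naive 3, and the rise was 0.69 ± 0.21 (edgeR adjusted p = 0.0112). Dnah8, an axonemal dynein, and Cc2d2a, a protein at the base of cilia, rose by 0.60 and 0.51, while the dynein Dnah10 fell by 1.05 ± 0.35 (edgeR adjusted p = 0.0149) with overlapping libraries and lost its call without ligature 2 or ligature 3. Pdlim4, an actin-associated LIM protein, had 598, 607, 598 and 584 in naive and 898, 758 and 679.8 in ligature libraries. Its naive values were nearly equal, and it rose by 0.38 ± 0.10 (edgeR adjusted p = 0.00595). Fryl and Arhgap18 rose by 0.28 and 0.43, and Arhgap18, a regulator of small GTPases, lost its call in 5 of the 7 fits that left out a library.

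Of 23 signalling genes 4 were higher and 12 lower, and of 7 matrix and surface genes 2 were higher and 3 lower, beside 28.4% higher and 56.8% lower over all tested genes. Il12rb2, a chain of the interleukin-12 receptor, had 218, 196, 201 and 159 normalised counts in naive and 293, 323 and 300.4 in ligature libraries. The ligature values were close together and above all naive values, with a rise of 0.66 ± 0.18 on the log2 scale (edgeR adjusted p = 0.00652). No listed T or NK cell marker was in the table, and which cells carry this transcript was not tested. Cspg4 (NG2), a membrane proteoglycan, had 402, 351, 389.5 and 322 against 545, 631 and 605, a rise of 0.70 ± 0.17 (edgeR adjusted p = 0.00436). Fras1, a protein that anchors epithelium to its basement membrane, had 574, 391, 539 and 347 against 898, 600.4 and 607. Its groups were separated by a narrow gap, and the rise was 0.60 ± 0.21 (edgeR adjusted p = 0.0187). It was no longer called without naive 2, naive 4 or ligature 1. Gnai1 (an inhibitory G protein subunit), Ptpn4 (a tyrosine phosphatase) and Atp2b4 (a plasma membrane calcium pump) rose by 0.43, 0.47 and 0.48. Pja2 and Klhl5, parts of the ubiquitin system, rose by 0.30 and 0.40, and the RNA-binding proteins Hnrnpr and Matr3 by 0.32 and 0.38. Matr3 overlapped between groups and lost its call without naive 1, naive 2, ligature 2 or ligature 3.

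The largest rises were in little-described and low-count genes. Ccer2, a coiled-coil protein, had 136, 98.8, 145 and 170.5 normalised counts in naive and 188, 339.6 and 419 in ligature libraries. The ligature libraries differed by more than 2-fold, the lowest being ligature 1 of set A, and the rise was 1.20 ± 0.30 on the log2 scale (SE; edgeR adjusted p = 0.00456). Fam81a, another coiled-coil protein, had 65.4, 51.3, 87.2 and 51.0 against 146, 133 and 125, with the ligature values even and a rise of 1.08 ± 0.27 (edgeR adjusted p = 0.0048). The transcript 2310057J18Rik had 3.16, 0, 14.5 and 15.8 in naive and 158, 39.9 and 14.9 in ligature libraries. Most of its rise came from ligature 1, without which the log2 change was 1.71 and the call was lost: the log2 ratio of means was 6.65 in set A and 0.85 in set B. Oip5os1 and Dlx4os, noncoding transcripts named for lying opposite Oip5 and Dlx4, rose by 0.37 and 0.63. The strand setting of the counting is not given, so reads from any stretch that overlaps a partner gene could not be assigned with certainty. How far the genes overlap was not examined. The predicted genes Gm14391 and Gm11940 rose by 0.72 and 0.69, and Gm11940 was high in ligature 1 alone and lost its call without it, naive 1, naive 3 or naive 4.

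The 2 gland markers in the table, of 10 listed, had few counts. Scgb2b12, a secretoglobin, had 40 raw counts over the 3 ligature libraries and 1 over the 4 naive libraries, which gives a scaled ratio of 47.3 with an exact 95% counting interval from 8.02 to 1910. Every ligature library exceeded every naive library, yet its call (edgeR adjusted p = 0.0441) was lost whichever library was left out. Smr2, a salivary gland protein, had 5, 3 and 2 raw counts in ligature libraries and 0 in each naive library, which allows up to 3 counts per library. It was too low to be tested. Whether gland tissue contributed to other values was not tested.

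Some genes differed more by library set than by group, among them Matn4. This matrix protein had 29.5, 17.4, 284 and 405 normalised counts in naive and 11.9, 251 and 189.7 in ligature libraries. Its values were low in set A and high in set B whatever the group, and its log2 change was -0.29 ± 1.26 (SE; edgeR adjusted p = 0.822), or -0.73 with the library set as a term (edgeR adjusted p = 0.00954). Of the 150 called genes 149 had the same sign within both sets, and Scgb2b12 had no value in set A because its naive libraries there had 0 counts. Each gene of the table had a low p in a fit with such a term, so this was partly fixed in advance. With the set as a term 157 genes were called, 52 higher and 105 lower.

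**Figure D4:**
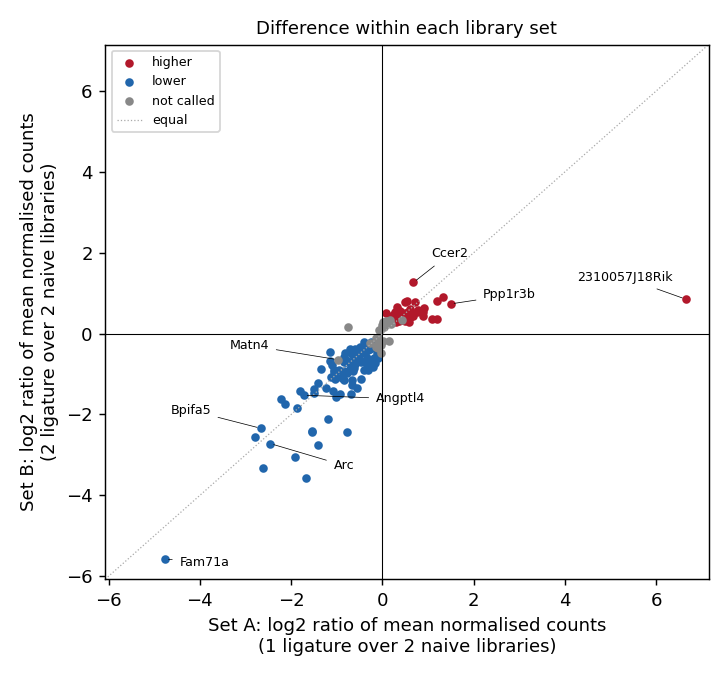
Log2 ratio of mean normalised counts, ligature over naive, in set A (horizontal axis, 1 ligature and 2 naive libraries) and set B (vertical axis, 2 and 2 libraries) for each tested gene with a value in both. Higher genes (red) lie at upper right and lower genes (blue) at lower left, and 2310057J18Rik lies far to the right of the line of equal values.

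**Figure D5:**
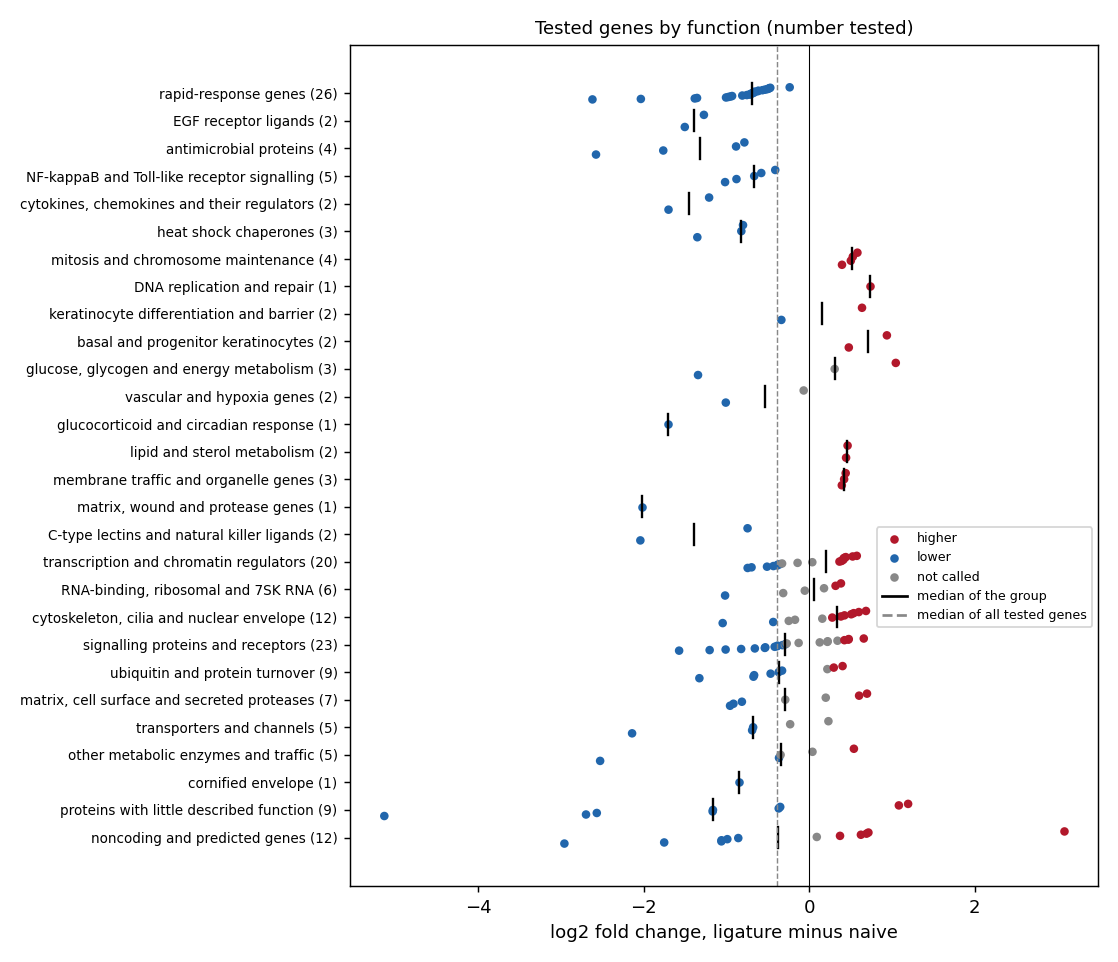
Log2 fold change of tested genes by function list or role (points, coloured by call), with the median of each group (black bar) and of all tested genes (dashed line, -0.38). All 26 rapid-response genes lie below 0 and all 4 mitosis genes above it.

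In the libraries whose ligature had been taken off, which share the naive controls, the same genes had the following values with no test here. Arc had between 48.0 and 152 normalised counts, above the ligature libraries in each case and below every naive library. Mki67 had between 3791 and 5229, and Krt10 between 88347 and 162610.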

How the data were processed

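RNA of gingival epithelium was sequenced, and 1 table of 178 named genes with 3 values per library was used. The raw counts deposited by the authors were whole numbers. The normalised counts deposited by the authors, a signal that is never below 0, were the raw counts over a size factor that lay between 0.757 and 1.21. The batch-corrected values deposited by the authors (other values on that scale, 7 below 0) served only to find the library sets: of 957 divisions tried, 1 left a residual of 7.42e-05% against 3.81% for the next. Per the submitters' processing notes, the build was GRCm39 and the tools were DESeq2 1.36.0, HTSeq 2.01, TopHat2 2.1.1 and cutadapt 2.10, with no step assigned to each. The correction method is not given in the sources used here.

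The main test was the two-sided quasi-likelihood F test of edgeR 4.0.16 (R 4.3.3) on raw counts with the deposited size factors, 1 fit of 11 libraries with a mean per group, default expression filter (Smr2 and Usp9y left out), and Benjamini-Hochberg adjustment over 176 genes at a threshold of 0.05. No 2 libraries of a group were near-copies (smallest chi-square per degree of freedom 20.39). In simulated data for ligature against naive, over 176 genes, the test recovered 30 of 30 genes changed 2-fold and 16 of 30 changed 1.4-fold. The simulation gave every gene the same median spread, changed no low-count gene and held no difference between library sets. Its recovery does not cover genes of wider spread. Alternatives were upper-quartile, median-of-ratios and TMM factors, other count filters, DESeq2 1.42.0, fewer libraries, a library set term, a replicate block and each library left out. Replicate numbers shared by the groups were not treated as pairs in the main test, and whether they pair the libraries was not settled. The total counts per library are unknown, so no depth-based interval is given except for Scgb2b12.

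The members and gene lists were chosen with earlier results of these data known. Named genes are all higher genes that are no predicted model, the 10 largest rises and falls with a mean normalised count of at least 20, up to 4 genes per function list by adjusted p, and every cell type marker in the table. Genes named outside this rule were chosen after their values were seen: Fos, Fosb, Jun, Junb, Jund, Zfp36l1, Btg2, Dusp1, Plk2, Ppp1r15a, Ccn1, Myd88, Phlda1, Slc5a1, Slc5a9, Rnf224, Tmem95, Tmem117, Dnah10, Lce3d, Tob1, Matn4, and the predicted genes. Promoter sequences come from RefSeq (GRCm38.p6), a build other than that of the counts, and were matched by symbol. Some genes of the table are not reported here.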

Additional observations from a re-analysis of the deposited data

Results flagged for a closer look

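In groups of 4 libraries, a single library far from the other 3 was looked for with Dixon's ratio of gap to range at its 95% critical value. Of 118 sets of 4 naive values tested, 5 passed, and chance alone would pass about 1 in 20. Mki67 was high in naive 1, at 3653 normalised counts against 3328 to 3365 in the others. Vegfa was high in naive 1 as well, at 1462. Tnfaip2 and Zfp36 were low in naive 3, at 908.4 and 9919 normalised counts. Scgb2b12 had a value above 0 in naive 4 alone, 0.879 normalised counts from 1 raw count.

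Among the genes too low to be tested, both had counts in removal replicate 1, a library outside the comparison. Smr2 had 7 raw counts there, beside 5, 3 and 2 in the ligature libraries and 0 in each naive library. Usp9y, a Y-linked gene, had 30 raw counts there. It had 0 in removal replicates 2 to 4 and in all 7 ligature and naive libraries.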

How the results depend on the processing

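The call counts kept within 1.5 times of the main 150 genes (50 higher, 100 lower) under each alternative except for lower genes with factors computed over the table: 50 with TMM and 50 with median-of-ratios factors, where treating the table as mostly unchanged raises every value. Rapid-response genes called lower then numbered 15 and 16, and NF-kappaB genes 2 and 2. Higher glucose genes numbered 2 with upper-quartile, median-of-ratios and TMM factors and with the library set as a term. Lower glucose genes numbered 0 with those 3 kinds of factors, without a count filter and with the replicate block. Membrane traffic genes higher numbered 1 in the fit of 7 libraries. With each library left out, calls ranged from 129 to 154 (higher 44 to 47, lower 84 to 107), glucose genes higher from 1 to 2 and lower from 0 to 1, and membrane traffic genes from 1 to 3. Among genes named in the report, signs changed in Matn4 (0.083 with TMM, 0.07 with median-of-ratios, 0.53 with the replicate block, and from -0.872 to 0.468 with a library left out), Ugcg (0.026 and 0.025 with TMM and median-of-ratios), Zfp36l1 (0.13 and 0.12) and Vegfa (0.29 and 0.28, 0.14 with upper-quartile factors, -0.213 to 0.052 with a library left out), all log2. The replicate block called 139 genes (44 higher, 95 lower) and lost 11 of the main calls. Deviations of same-numbered libraries correlated at 0.65, -0.60 and 0.36. The signs followed the library sets. Ligature 1 of set A correlated at 0.65 and 0.68 with naive 1 and naive 2 of that set. With naive 3 and naive 4 of set B it correlated at -0.58 and -0.68. These correlations therefore cannot show whether the numbers pair the libraries. Beyond what is stated, the cause was not tested. The unknown depth and the preselected table limit every count, and the preselected table limits every p-value.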
